A study of Mus musculus with 4 samples.

Results

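The genes described here encode the Hedgehog ligand SHH, its receptors and co-receptors, the signal transducer SMO, the inhibitor SUFU and the GLI transcription factors, measured in cultured mouse ureters in which WNT secretion was blocked. The members were all probes that the array design assigns to Shh, Ptch1, Hhip, Gli1, Gli2, Gli3, Smo, Sufu, Boc or Gas1, which gave 17 of the 39429 gene probes and 10 of the 29924 gene names. All 10 genes were among the 22455 that could be tested. Each of 4 two-color Agilent arrays compared RNA of 1 pool of treated ureters with RNA of 1 pool of control ureters. The ureters came from wild-type NMRI embryos of stage E12.5 and were cultured as explants for 18 h in medium with IWP-2 at a dose of 10 µM or with the solvent DMSO alone. IWP-2 inhibits Porcupine, an enzyme that WNT ligands need for secretion. Treated RNA carried the red dye on arrays 1 and 3 and the green dye on arrays 2 and 4. A pool mixes ureters of several embryos, epithelium and mesenchyme together, and IWP-2 acts on WNT secretion from every cell of the explant. In such bulk RNA, fewer cells of a type and less RNA per cell cannot be told apart. The comparison asks how transcript levels in the early ureter change when WNT ligands are withheld for this time.

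In the developing ureter SHH is made by the epithelium and acts on the surrounding mesenchyme. The receptor PTCH1 holds SMO inactive until it binds SHH, with help of the co-receptors BOC, GAS1 and CDON. Active SMO frees the GLI proteins from SUFU and from proteolytic processing, so that GLI2 and GLI3 change from repressors to activators of transcription. Gli1, Ptch1 and Hhip are transcribed in response to the signal in most tissues. GLI1 strengthens it, while PTCH1 and HHIP, a membrane protein that binds the ligand, dampen it. They are called feedback targets below, Boc and Gas1 co-receptors, and Gli2, Gli3, Smo and Sufu constitutive parts.

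Each level of the feedback targets, of Shh and of Gas1 was read by a probe of 60 bases, and of each the first 30 bases are shown here, because several probes of a gene gave unequal values. Coordinates refer to mm9, the build that the array files use, and all of these probes match the minus strand. The sequences are from the array files, in lower case and 5′ to 3′. No exon or untranslated region is assigned to a probe, as no annotation of this build was used here.
Ptch1, probe used for the gene, chr13:63610298-63610357: catttggatgttttaatttgtaaaagaaaa
Ptch1, further probe, chr13:63612879-63612938: ttcatgtcaggtgtgagaggagggactcaa
Hhip, probe used for the gene, chr8:82494280-82494339: gcagtagccttcatctgtaggttaatagtc
Hhip, further probe, chr8:82490729-82490788: tatagaattatgaccatgagcatgaaagac
Gli1, probe used for the gene, chr10:126766967-126767026: ggggctgtatttagtctatgtatgttccag
Gli1, further probe, chr10:126775021-126775080: tctgcaggagaaggtggggaagctagggcc
Shh, the single probe, chr5:28783983-28784042: aatttattattgtgtgaactgtactcacag
Gas1, probe used for the gene, chr13:60276399-60276458: aaagttaccatggtgttgaacaatgcatgt
Gas1, further probe, chr13:60277268-60277327: ggccttgcgcgcccgggcggcggcgctgct
Gas1, further probe, chr13:60278243-60278302: atggatgaggacgcccatgccagaagtgcg

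With IWP-2 the 3 feedback targets fell, Shh rose, and the constitutive parts did not pass the test. Of the 10 genes, 3 were lower (Ptch1, Hhip and Gli1) and 3 were higher (Shh, Boc and Gas1) at an adjusted p under 0.05 (limma, two-sided, Benjamini-Hochberg over 22455 genes), and 4 did not pass. Of all genes tested, 3359 or 15.0% were lower and 4062 or 18.1% were higher by the same rule, so that 3 calls in a direction among 10 genes are not far above this background. The sizes differed more. The median absolute log2 change of all called genes was 0.25, and in the order of all log2 changes from the lowest, Hhip stood at place 9, Gli1 at place 59 and Ptch1 at place 115.

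Levels are given as log2 intensities of each channel after normalization within and between arrays. They compare pools for 1 probe and not probes with each other. Hhip, which encodes the ligand-binding antagonist, measured 13.10, 12.88, 12.86 and 12.94 in the control pools of arrays 1 to 4. It measured 11.20, 10.09, 10.16 and 10.37 in the IWP-2 pools. All 4 treated pools lay below all control pools, and the treated pool of array 1 was the highest of them. The log2 ratio was -2.49 ± 0.41 (SD, n = 4 arrays; adjusted p = 6.47e-05, limma), and 17.8% of the control level was left.

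Gli1, the amplifier among the GLI factors, measured 14.45, 14.43, 14.50 and 14.33 in the control pools. In the IWP-2 pools it measured 13.65, 12.44, 12.70 and 12.91. The groups did not overlap, and again array 1 held the highest treated pool. The log2 ratio was -1.50 ± 0.53 (SD, n = 4; adjusted p = 0.00137, limma), with 35.3% of the control level left. With the authors' table of fold changes in place of the scanner intensities, the log2 ratio of Gli1 was -1.51 and no longer passed (adjusted p = 0.0771, limma).

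Ptch1, the SHH receptor, measured 11.44, 11.45, 11.30 and 11.37 in the control pools. In the IWP-2 pools it measured 10.60, 9.94, 10.13 and 10.09. The treated pools lay below all control pools, with array 1 once more the highest. The log2 ratio was -1.20 ± 0.28 (SD, n = 4; adjusted p = 0.00011, limma), and 43.5% of the control level was left.

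**Figure D1:**
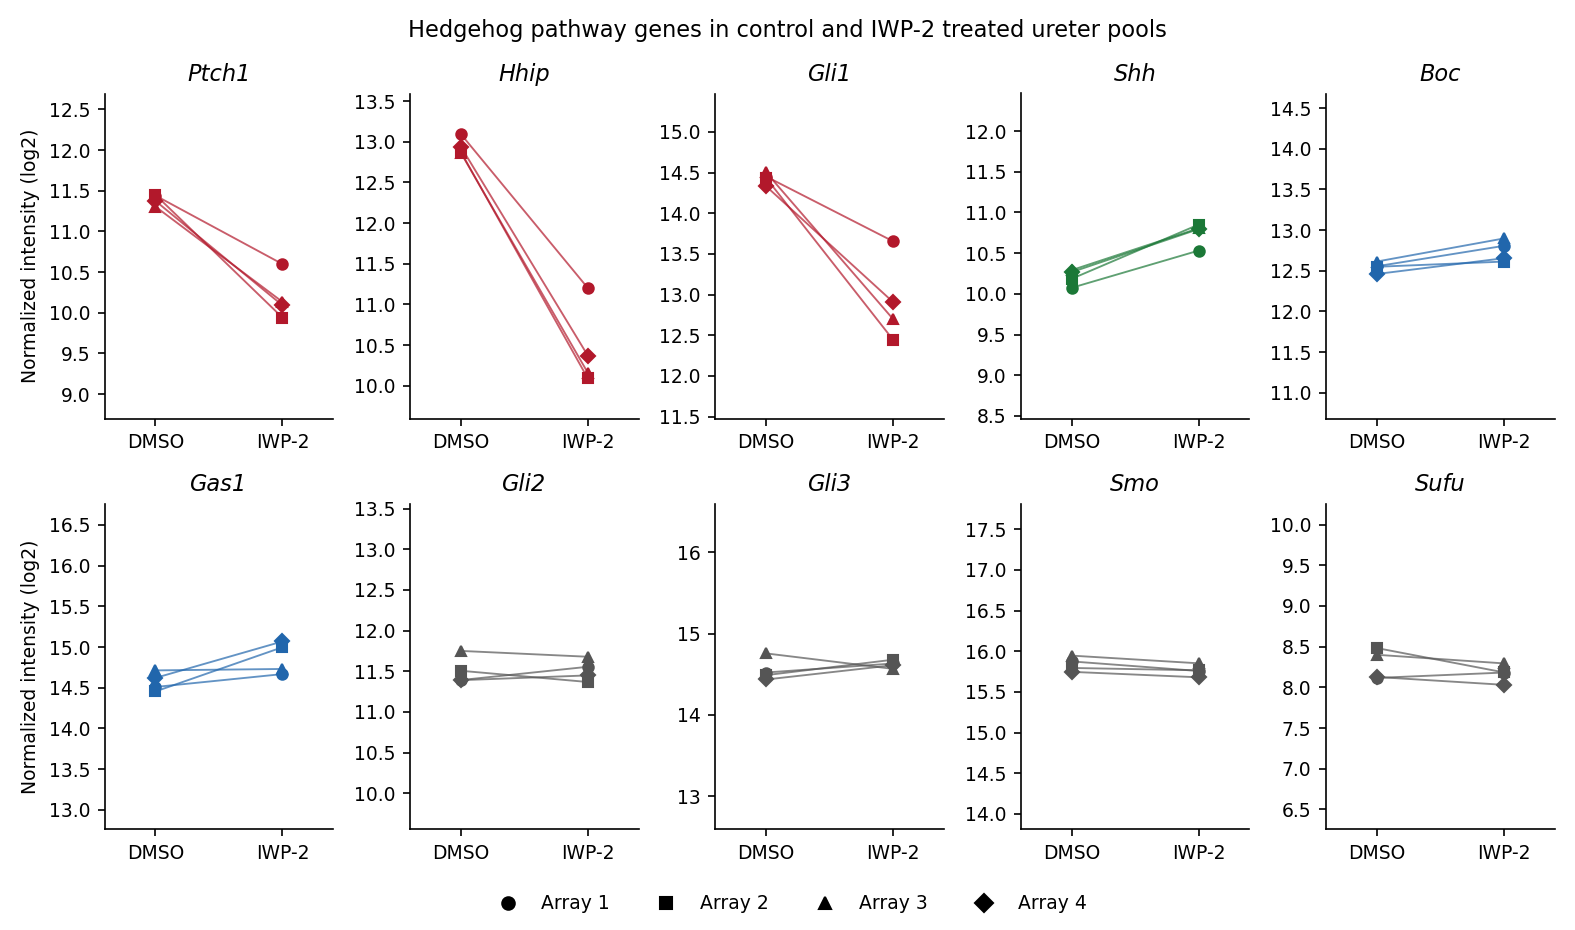
Normalized intensity (log2) of the probe used for each of the 10 genes in the control (DMSO) and IWP-2 pools, with a line joining the 2 pools of an array and a marker shape per array; every panel spans the same range of log2 units. The IWP-2 pools of Ptch1, Hhip and Gli1 lie below all control pools, those of Shh lie above them, and the groups of the other 6 genes overlap.

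The control and treated pools did not overlap for 4 of the 10 genes, namely Ptch1, Hhip and Gli1 on the lower side and Shh on the higher side. Of all genes tested, 11.5% did not overlap on the lower side and 10.9% on the higher side. The control pools of the feedback targets were close to each other, with SDs of 0.07 for Ptch1, 0.11 for Hhip and 0.07 for Gli1. The treated pools were spread more widely, with SDs of 0.28, 0.51 and 0.52 in the same order. Repeat spots of these 3 probes within an array had SDs of 0.02 to 0.06, below the spread between arrays. Gli1 varied more between arrays than 99.5% of all genes tested, Hhip more than 98.9% and Ptch1 more than 95.7%. The median SD of all genes tested was 0.11 and their median log2 change 0.00. These are thus no ranks among genes of like change.

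Array 1 carried the smallest fall of each feedback target. The log2 ratio of Gli1 was -0.80 on array 1 against -1.99, -1.80 and -1.42 on arrays 2 to 4. As a share of the mean of arrays 2 to 4, the log2 change on array 1 was 0.46 for Gli1, 0.64 for Ptch1 and 0.70 for Hhip. Over the 165 genes that passed the test with a fall of 2-fold or more, the median share was 0.87, and 1 of them had a share below that of Gli1. Without array 1 the median change of the feedback targets was -1.76, compared with -1.50 over all 4 arrays, and all 3 genes still passed. Most of the further genes known to respond to Hedgehog also had smaller falls on array 1. Of the 11 that fell (named below), 8 had a share under 0.87. The median was 0.65, with a range of 0.28 (Bcl2) to 1.72 (Cdk6). Ccnd1 had 0.46, Foxc2 0.53, Ccnd2 0.58 and Foxl1 0.65, while Foxf2 (1.01), Rab34 (1.52) and Cdk6 fell as much or more on array 1. The genes at both ends of the range differed by dye order. Bcl2 had log2 ratios of -0.13 and -0.17 on arrays 1 and 3 (treated RNA red), and -0.63 and -0.54 on arrays 2 and 4 (green). Cdk6 had -0.30 and -0.48 on arrays 1 and 3, and -0.05 and 0.02 on arrays 2 and 4. A share sets array 1 (red) against arrays 2 to 4, so that a dye effect enters it. Several of the 11 fell less than 2-fold and are not among the 165 genes. Thus 0.87 is no share for genes of like size. The parts of array 1 and of the dye order in these shares were not tested.

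The further probes gave the same direction for Hhip and Ptch1. The further Hhip probe gave a log2 ratio of -3.08 ± 0.48 (SD, n = 4; adjusted p = 5.37e-05, limma over all probes), larger than the value of the probe used for the gene, and here too array 1 had the smallest fall at -2.41. The further Ptch1 probe gave -1.34 ± 0.18 (SD, n = 4; adjusted p = 5.43e-05, limma over all probes), with values of -1.18, -1.53, -1.44 and -1.19. Its array 1 value did not stand apart, unlike that of the probe used for the gene. The further Gli1 probe, which the design assigns to another transcript of the gene (AK157048), was well above background in the control pool of 2 arrays and in no treated pool, and was not tested.

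The study filtered its arrays by intensity (over 100) and by fold change (over 2), which the paper states for 2 individual arrays per stage. Its methods give n = 4 for the E12.5 explants. Here the filter was applied to all 4 arrays and to the processed intensities of the probe used for each gene. It kept 96 of 29924 gene names as lower (0.321%) and 21 as higher (0.0702%), and these counts may differ from the paper's lists. Of the 10 genes only Hhip passed this version, while the paper names Ptch1 too among the reduced genes and reports its fall by RT-qPCR at E12.5. Gli1 and Ptch1 missed it on array 1, with log2 ratios of the processed intensities of -0.80 and -0.86, and passed on arrays 2 to 4. The further Ptch1 probe passed on all 4 arrays, with its smallest change at -1.25.

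**Figure D2:**
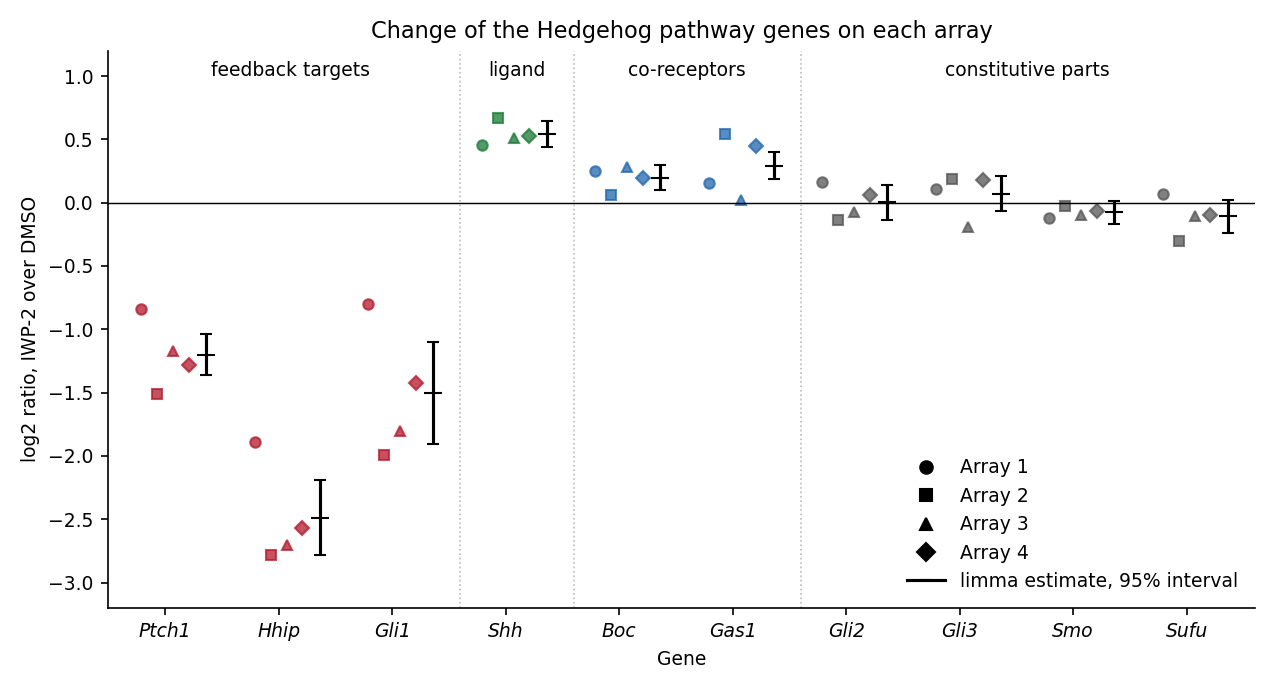
Log2 ratio of IWP-2 over DMSO for each of the 10 genes (marker per array), with the limma estimate and its 95% interval in black. The feedback targets lie between -2.78 and -0.80, the co-receptors and constitutive parts between -0.30 and 0.54, and the circles of array 1 are the smallest falls of all 3 feedback targets.

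Feedback targets were set apart from co-receptors and constitutive parts on every array. The median log2 ratio of the 3 feedback targets was -0.84, -1.99, -1.80 and -1.42 on arrays 1 to 4. The median of the 6 co-receptors and constitutive parts was 0.13, 0.02, -0.08 and 0.12. The difference was -0.98, -2.01, -1.72 and -1.54, with a mean of -1.56 ± 0.43 (SD, n = 4). No value of a feedback target on any array reached into the range of the other 6 genes. The median log2 change of all genes tested was 0.00.

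The constitutive parts showed no change past the test. The intervals set its possible size, except for Sufu, whose probes were dim. Gli2, the main activator of the pathway in most tissues, had a log2 ratio of 0.00 with a 95% interval of -0.13 to 0.14 (adjusted p = 0.975, limma, n = 4). Gli3, the main repressor, had 0.07 with an interval of -0.06 to 0.21 (adjusted p = 0.376, limma, n = 4). Both genes moved up on some arrays and down on others.

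Smo, the transducer that PTCH1 inhibits, had a log2 ratio of -0.08 with an interval of -0.17 to 0.01 (adjusted p = 0.170, limma, n = 4). Its 4 arrays lay close together, from -0.12 to -0.03. Sufu, which holds GLI proteins inactive, had -0.11 with an interval of -0.24 to 0.02 (adjusted p = 0.163, limma, n = 4). The further probes of Smo (-0.06 ± 0.08) and Sufu (-0.11 ± 0.14, SD, n = 4 each) did not pass either. None of the intervals of Gli2, Gli3 and Smo reaches the smallest fall of a feedback target on a single array. The interval of Sufu is not read in this way, since its probes were dim.

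The co-receptors Boc and Gas1 rose slightly. Boc, a cell surface protein that binds SHH together with PTCH1, measured 12.56, 12.55, 12.61 and 12.46 in the control pools. In the IWP-2 pools it measured 12.81, 12.61, 12.90 and 12.65. The groups overlapped, since the lowest treated pool did not exceed the highest control pool. The log2 ratio was 0.20 ± 0.10 (SD, n = 4; adjusted p = 0.0139, limma). The rise of Boc no longer passed with the authors' table (adjusted p = 0.0812), with the 8 channels as separate samples (0.0863), or without array 3 (0.059) or array 4 (0.0631; limma in each case).

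Gas1, a membrane-anchored co-receptor, measured 14.51, 14.45, 14.71 and 14.62 in the control pools. In the IWP-2 pools it measured 14.67, 15.00, 14.73 and 15.07. The rise was seen mainly on arrays 2 and 4, where treated RNA was green. The log2 ratio was 0.29 ± 0.25 (SD, n = 4; adjusted p = 0.00434, limma), with means of 0.09 over the arrays with treated RNA in red and 0.50 over those with treated RNA in green. The dye term of Gas1 had an unadjusted p of 0.00314 and an adjusted p of 0.153 (limma, n = 4). Without a dye term in the fit the log2 ratio was again 0.29 and did not pass (adjusted p = 0.0511, limma). Each dye order was used on 2 arrays, so that a dye effect cancels in this mean.

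The probes of Gas1 differed. The further probes gave 0.06 ± 0.10 (adjusted p = 0.255) and 0.17 ± 0.15 (adjusted p = 0.0745; SD, n = 4 each, limma over all probes), so that 1 of its 3 probes passed. The probe with the smallest value has a GC content of 85.0%, against 38.3% of the probe used for the gene.

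Shh, the ligand, rose. It measured 10.07, 10.18, 10.29 and 10.27 in the control pools and 10.53, 10.85, 10.81 and 10.80 in the IWP-2 pools. All treated pools lay above all control pools. The log2 ratio was 0.54 ± 0.09 (SD, n = 4; adjusted p = 0.000417, limma), a 1.46-fold higher level, with 0.46, 0.67, 0.51 and 0.53 on arrays 1 to 4. In the order of all log2 changes from the highest, Shh stood at place 300. It passed under all 19 alternatives, with log2 ratios of 0.51 to 0.59.

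Markers of the ureteric epithelium, the source of SHH, moved in the same direction. All 7 of 7 markers rose, against 18.1% of all genes tested, with log2 ratios of 0.24 (Cldn7) to 0.34 (Krt18) and a median of 0.30. Their summed intensity was 179915 to 195215 in the control pools and 205280 to 255326 in the IWP-2 pools, and all were well above background in every pool. The median of the markers was 0.22, 0.39, 0.41 and 0.29 on arrays 1 to 4. Shh exceeded this median on each array, by 0.21 ± 0.07 on the log2 scale (SD, n = 4), while on array 3 the keratin gene Krt19 (0.60) exceeded Shh (0.51). The part of the epithelial share in the rise of Shh was not tested.

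**Figure D3:**
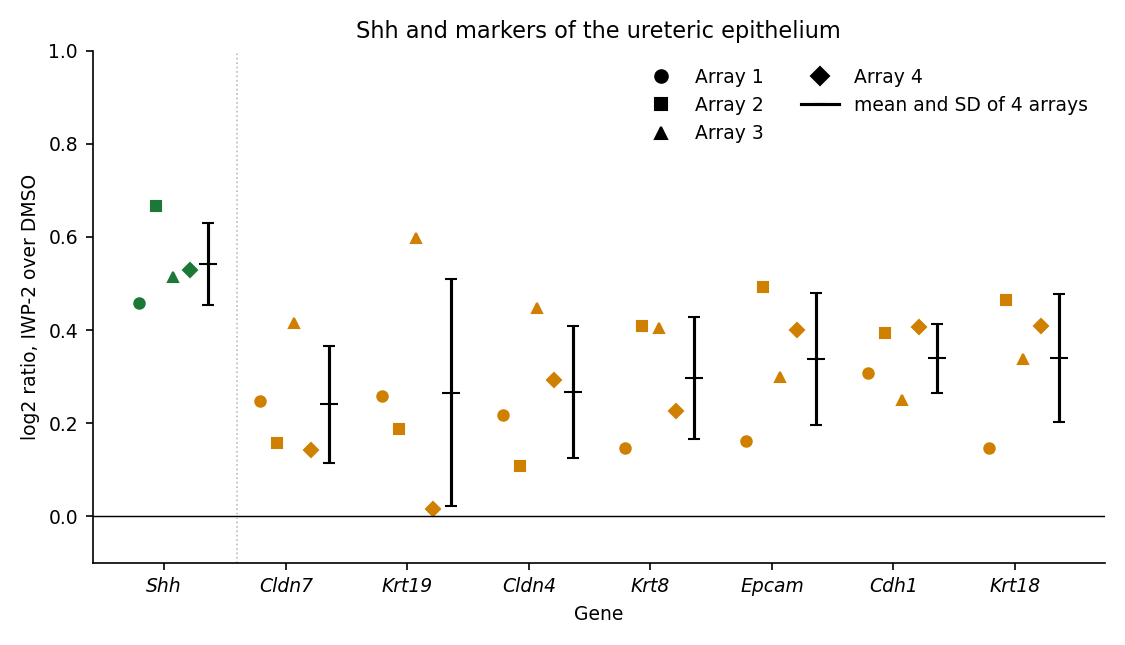
Log2 ratio of IWP-2 over DMSO for Shh and 7 markers of the ureteric epithelium (marker shape per array), with the mean and SD of the 4 arrays in black. Shh has a mean of 0.54 and the epithelial markers have means of 0.24 to 0.34.

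Other cell types were also measured, since the feedback targets are expressed in the mesenchyme. Of 7 mesenchymal markers, 1 fell (Tbx18, -0.74 ± 0.26), 2 rose (Twist1, 0.85 ± 0.08, and Pdgfrb, 0.80 ± 0.07; SD, n = 4 each) and 4 did not pass, with a median of 0.09. Their summed intensity was 367751 to 397962 in the control pools and 387012 to 428874 in the IWP-2 pools. All 5 of 5 smooth muscle markers fell, with a median of -0.73 and summed intensities of 30907 to 45361 in the control pools and 19472 to 28094 in the IWP-2 pools. Of the other lists, 4 of 6 endothelial, 3 of 5 blood, 2 of 5 neural crest, 5 of 5 nephron progenitor and 3 of 4 macrophage markers rose and none fell. Among all genes tested, 15.0% were lower and 18.1% higher by the same rule. The part of cell composition in the changes of the feedback targets was not tested.

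Outside the 10 genes, the release factor Scube2 and the co-receptor Cdon changed most in their groups. SCUBE2, a secreted protein that releases lipid-modified SHH from the cell that makes it, had lower transcript levels with IWP-2, at -1.91, -2.23, -2.18 and -2.18 on arrays 1 to 4. The mean was -2.12 ± 0.15 (SD, n = 4; adjusted p = 8.27e-06, limma). With the mean of all Scube2 probes in place of the brightest, the log2 ratio was -1.53 (adjusted p = 9.81e-06, limma). The probes of Scube2 thus differ in the size of the fall. Of the 7 genes for further ligands, processing and release, 1 fell (Scube2) and 3 rose. Those that rose were Dhh (0.30) and Ihh (0.23), the other Hedgehog ligands, and Scube3 (0.26). The Dhh probe was dim, with log2 levels of 7.20 to 8.08. Ihh rose most on array 1 (0.55, against 0.06 to 0.18 on the others), and Scube3 fell on array 3 (-0.09). Hhat, Scube1 and Disp1 did not pass. The median of this list was 0.02, and of all genes tested 15.0% were lower and 18.1% higher.

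CDON is the closest relative of BOC. Its log2 ratios were 0.47, 0.44, 0.50 and 0.54, with a mean of 0.49 ± 0.04 (SD, n = 4; adjusted p = 0.000477, limma). Of 4 further genes listed with the receptors and co-receptors, 3 rose and 1 fell, with a median of 0.25. The others that rose were Lrp2 (0.28), a large endocytic receptor that binds SHH, and Mgrn1 (0.22), which encodes an intracellular ubiquitin ligase and no receptor. Without it, 2 of 3 rose, against 18.1% of all genes tested. Gpc3 (-0.43), a heparan sulfate proteoglycan that competes with PTCH1 for the ligand, fell.

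Genes for ciliary transport and for the processing of GLI proteins moved little. Of 23 such genes, 2 fell (Btrc, -0.18, and Evc, -0.15), 2 rose (Iqce, 0.17, and Adrbk1, 0.15) and 19 did not pass, with a median of 0.00. As shares, both counts lie below the 15.0% lower and 18.1% higher of all genes tested. These 4 calls were lost in part under several alternatives.

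Further genes known to respond to Hedgehog signaling in embryonic tissues mostly fell. Of 14 such genes Nkx2-1 was not well above background and was not tested. Of the 13 tested, 11 fell and none rose at an adjusted p under 0.05 (limma), with a median of -0.77. By this rule 15.0% of all genes tested fell. The forkhead genes Foxl1 (-2.61 ± 0.53), Foxf1 (-2.24 ± 0.31) and Foxf2 (-1.38 ± 0.07) fell most, followed by the signaling gene Bmp4 (-1.31 ± 0.12; SD, n = 4 each). Foxc2 (-0.79), Ccnd1 (-0.78) and Ccnd2 (-0.77) formed a group with smaller changes, of which the cyclin genes also respond to WNT signaling in many tissues. Mycn (-0.42), Bcl2 (-0.37), Rab34 (-0.21) and Cdk6 (-0.20) fell less, and Hsd11b1 (-0.11) and Nkx2-2 (-0.07) did not pass. Cdk6 did not fall on array 4 (0.02). The Nkx2-2 probe was dim, with log2 levels of 6.91 to 7.13. Some of these genes, Foxf1 and Bmp4 among them, were picked by the study on these arrays, so that their count is not independent evidence of a direction. Of the 13, 5 passed as lower with the authors' table, while Foxc2 (-0.81), Ccnd1 (-0.77) and Ccnd2 (-0.79) kept their size and missed the threshold (adjusted p = 0.0778, 0.0502 and 0.0523, limma).

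**Figure D4:**
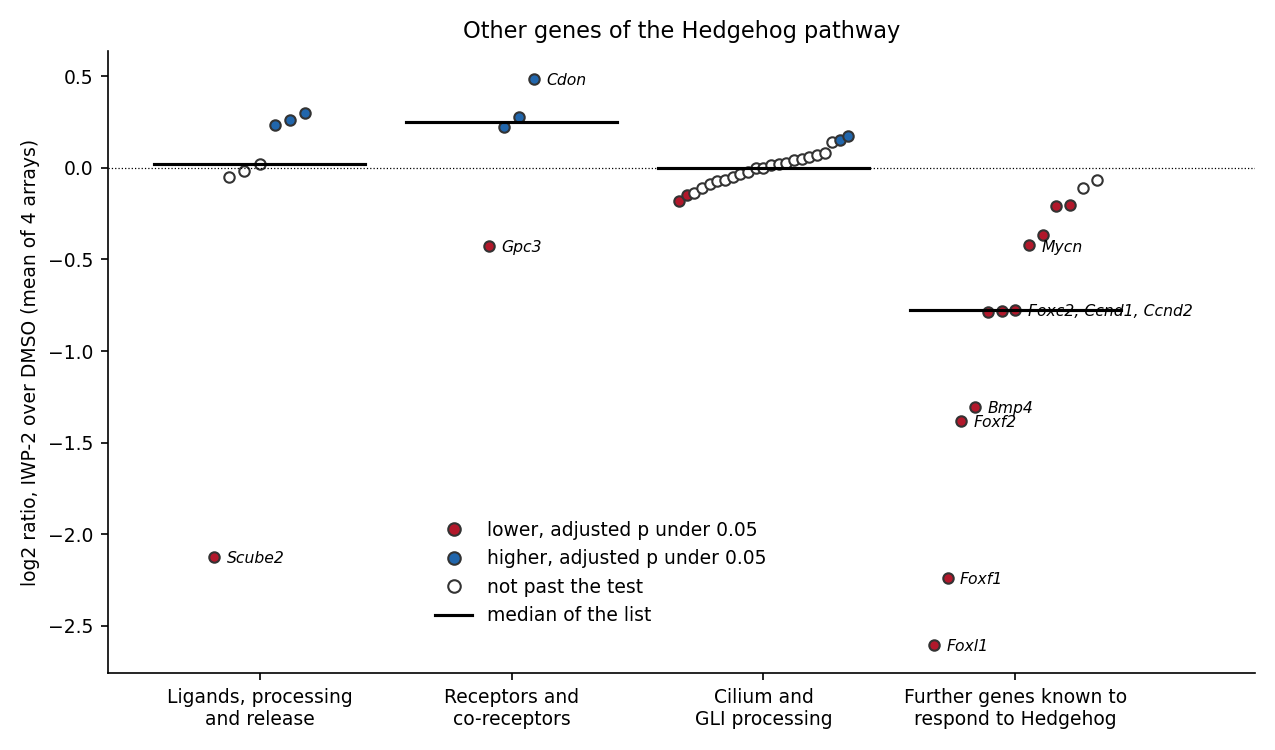
Mean log2 ratio of IWP-2 over DMSO (4 arrays) of the other pathway genes in 4 lists, filled red where lower and blue where higher at an adjusted p under 0.05, with the list's median as a black line and the genes of larger change named. The medians are 0.02, 0.25, 0.00 and -0.77 from left to right.

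The genes whose 4 log2 ratios lay nearest to those of a member were found by Euclidean distance over the 4 arrays among all tested genes with a name. For Hhip they were Foxl1 (distance 0.34), Epha8 (0.48) and Notumos (0.52). For Gli1 they were Fam101a (0.44), Camk1d (0.45) and Ptx3 (0.60). For Ptch1 they were Btbd17, Tgm5 and Zc3h12d, each at 0.18. For Shh they were Cblc (0.08), Fap (0.10) and Slc24a3 (0.11). Notumos was well above background in every control pool and in no treated pool, so that its values are only bounds.

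Promoter sequences were at hand for 7 of the 10 genes, as the 250 bases before the transcription start in RefSeq (GRCm38.p6). Those of the feedback targets Ptch1 and Hhip are shown because both genes fell together, 5′ to 3′ on the minus strand, with a match to the core of the GLI binding motif in capitals.
Ptch1, chr13:63565736-63565985: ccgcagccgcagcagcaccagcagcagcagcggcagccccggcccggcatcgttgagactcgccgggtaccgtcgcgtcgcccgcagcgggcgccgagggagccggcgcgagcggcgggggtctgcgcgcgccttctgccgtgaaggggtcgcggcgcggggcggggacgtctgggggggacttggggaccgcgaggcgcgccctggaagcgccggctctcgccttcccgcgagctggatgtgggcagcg
Hhip, chr8:80058009-80058258: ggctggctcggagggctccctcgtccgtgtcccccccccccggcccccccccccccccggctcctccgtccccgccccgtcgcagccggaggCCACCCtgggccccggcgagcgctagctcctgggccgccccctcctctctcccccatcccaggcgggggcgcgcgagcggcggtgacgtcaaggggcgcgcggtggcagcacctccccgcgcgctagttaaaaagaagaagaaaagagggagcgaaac
The GLI motif GACCACCCA, searched on both strands, was in none of the 7 promoters and in 0.225% of all 32851. Its core CCACCC, which lies within the longer motif, was in Hhip once, in Gli2 at 2 places and in Gli3 and Smo once each, and in 28.1% of all promoters. Ptch1, Sufu and Gas1 held none. The TCF/LEF motif CTTTGAT, through which WNT signaling acts on transcription, was in none of the 7 and in 3.21% of all. The core was thus present in 1 gene that fell, Hhip, and in 3 genes that did not pass the test.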

How the data were processed

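RNA of pooled ureters was hybridized to 4 two-color arrays, which lay on 1 slide and shared 1 scan. The authors extracted spot values with Agilent Feature Extraction 10.7.3.1 per the submitters' processing notes. The deposited files give raw and processed spot intensity values and a log10 ratio of red over green, which was used only to check direction. A series table that the authors deposited holds a score per probe and array, a signed fold change of unstated normalization. Its direction followed that of the processed intensities. It served as an alternative.

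Raw intensities were corrected with normexp (offset 50) and normalized by loess (span 0.3) in limma 3.58.1 (R 4.3.3). Control and outlier spots were left out, and the 4 spots of a probe were averaged. Channel levels were in addition normalized by Aquantile. Genes entered the test when all 4 pools of a group gave a signal well above background, and the brightest of its probes stood for it. Log2 ratios were fitted with lmFit and eBayes with a dye term, over all 22455 genes, and the fit was tested on simulated data. Median raw intensities were 368 to 711 in control and 385 to 694 in treated channels, and the log2 ratios of the arrays correlated with r of 0.625 to 0.831 across genes (genes are no independent replicates). The number of arrays limits the precision. The labels do not tie pools to separate cultures beyond the replicate number, so that p-values refer to the spread between these pools only. That spread is what remains after the dye term, moderated over all genes, and not the SD printed beside a ratio. For Gas1 the SD was 0.25 and the residual SD 0.085, and for Gli1 they were 0.53 and 0.58.

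The members and the gene lists were chosen with earlier results of these data known. All members were named, and of the wider lists those that passed with a log2 change of 0.5 or more, the largest change and untested members. Some genes of the wider lists are not reported here and were left out of the list counts. Other list genes were named by call after their values were seen. For Ptch1, Hhip, Gli1 and Shh the 3 nearest genes were named.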

Additional observations from a re-analysis of the deposited data

Results flagged for a closer look

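Among the 24 genes whose 4 log2 ratios were examined for a value far from the other arrays, 2 were marked, and chance marks about 1 in 20. Bmp4 had a log2 ratio of -1.13 on array 1, against -1.37 to -1.35 on the other arrays. Scube2 had -1.91 on array 1, against -2.23 to -2.18 on the others. Both genes fell on all 4 arrays.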

How the results depend on the processing

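Of 341 values of 18 genes under 19 alternatives, 332 kept their side of the threshold and 9 lost the call. No value of a called gene changed sign. The values of Gli2 and Gli3, which did not pass, had another sign in 3 and 1 cases. The calls lost were those of Gli1, Foxc2, Ccnd1 and Ccnd2 once each with the authors' table, Gas1 once without a dye term, and Boc 4 times. Of the members 2 to 3 were lower and 2 to 3 were higher, the median of the feedback targets was -1.76 to -1.25 and that of the co-receptors and constitutive parts -0.03 to 0.10. The authors' table called 2050 genes lower and 1833 higher. The fit with no replicate block, which treats the 8 channels as separate samples and drops the pairing of pools by array, called 2066 lower and 2039 higher. Leaving out an array gave 2167 (without array 3) to 2794 genes lower. Of the further genes known to respond to Hedgehog, 11 passed as lower, and 5 did with the authors' table.

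The small counts of the wider lists moved most. Rises among ligands and release factors were 3, and 1 with processed intensities or no dye term, 0 with the authors' table or 8 channels, and 1 to 3 when an array was left out (1 without array 1 or 4). Rises among receptors were 3, and 1 with the authors' table or 8 channels. Rises among the cilium and GLI processing genes were 2, and 1 with offset 16, processed intensities or no dye term, 0 with median centring or 8 channels, and 0 to 2 when an array was left out (0 without array 1 or 4, 1 without array 2). Falls there were 2, and 1 with processed intensities, no dye term or the mean of all probes, 0 with the authors' table or 8 channels, and 0 to 1 when an array was left out (1 without array 1 or 4, 0 without array 2 or 3). The cause was not tested, except that these last fits hold fewer samples. A fit with the slide as a block was not run, since all arrays lay on 1 slide. The offset draws ratios of dim probes towards 0.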
